A study of Mus musculus with 13 samples.

Results

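A set of 10 genes of the Wnt pathway were followed in Neuro2a cells that had lived through a failed cryostorage, namely the ligands Wnt3 and Wnt5a, the receptors Fzd1, Fzd2, Fzd3 and Fzd7, the R-spondin receptor Lgr5, and Axin2, Lef1 and Tcf7, which act inside the cell. They were chosen by name, with earlier results of these data known. All 10 were found among the 34856 genes with a value in every library. Poly(A) RNA was sequenced in 13 libraries of Neuro2a, a mouse neuroblastoma line. The experimental cells had been frozen in 10% DMSO in a vessel whose liquid nitrogen evaporated over 10 h, stood at 4 °C for 24 h, went back into the cold at -80 °C for 72 h, and were then thawed at 37 °C and grown with 10% serum. Control cells of the same line and freezing medium stayed in normal cryostorage until they were thawed and plated. Passage 1 was taken when the surviving cells proliferated again and has 4 experimental and 3 control libraries. Passage 6 was taken when the cells looked normal and has 3 experimental and 3 control libraries. The labels do not say whether libraries of a group came from separate vials or flasks, so p-values speak only of the spread among these libraries, and that spread may be technical.

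In Wnt signalling, a secreted lipid-bearing ligand binds a Frizzled receptor, a protein that spans the membrane many times, together with the co-receptor Lrp5 or Lrp6. This stops the complex built on Axin and Apc from destroying β-catenin, which then enters the nucleus and switches on genes with the DNA-binding proteins of the Tcf and Lef family. Other ligands, of which Wnt5a is the best known, mostly signal through Frizzled with Ror, Ryk or Ptk7 to the cytoskeleton and to planar cell polarity, without β-catenin. Frizzled receptors are removed from the surface by Znrf3 and Rnf43, unless R-spondins hold these back through Lgr4, Lgr5 or Lgr6. Wnt signals take part in making the neural crest, from which the sympathetic neuron precursors behind neuroblastoma come.

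Values are FPKM, that is, sequenced fragments per kilobase of a transcript, scaled to each library, so levels of different genes can be compared per length. The libraries had 12014 to 12467 genes at 1 FPKM or more, and the read depth is unknown. Of 12 sympathetic neuron and neuroblastoma markers, 11 reached 1 FPKM in every library. Some libraries also held transcripts of other tissues. The sum of 20 markers of colon epithelium was 222, 193, 8.43 and 94.9 FPKM in experimental libraries 1 to 4 of passage 1, against 526, 231 and 249 FPKM in the controls. At passage 6 the colon sums were 121, 8.43 and 8.995 FPKM in experimental libraries, against 127, 250 and 295 FPKM in controls. Passage 6 experimental libraries 2 and 3 also carried liver markers at 191 and 152 FPKM and fibroblast markers at 154 and 138 FPKM, against 0.275 and 5.47 FPKM in experimental library 1. In the passage 6 controls liver sums stayed at or below 0.691 FPKM and fibroblast sums lay between 10.1 and 16.1 FPKM. Brain marker sums were 83.7 and 68.1 FPKM in passage 6 experimental libraries 2 and 3. They were 26.0 FPKM in experimental library 1 and 29.3 to 31.4 FPKM in the controls. In bulk RNA, fewer cells of a type and less RNA per cell cannot be told apart.

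Fzd1, Fzd2 and Fzd7 are close paralogs that each lie in a single exon, so the longest stretches of coding sequence that they share exactly are shown, as reads within them fit either gene. They were read from the GRCm38 genome with GENCODE M21 and written along the coding strand.
Fzd1 and Fzd2: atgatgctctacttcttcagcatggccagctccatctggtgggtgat
Fzd1 and Fzd7: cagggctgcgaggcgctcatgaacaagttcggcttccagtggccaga
Fzd2 and Fzd7: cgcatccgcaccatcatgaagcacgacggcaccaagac
The runs with Fzd1 are 47 bases and that of Fzd2 and Fzd7 is 38 bases long, in coding sequences of 1926 bases for Fzd1, 1710 for Fzd2 and 1716 for Fzd7. The run of Fzd1 and Fzd2 lies at chr5:4756331-4756377 on the minus strand and at chr11:102605740-102605786 on the plus strand. That of Fzd1 and Fzd7 lies at chr5:4756964-4757010 on the minus strand and at chr1:59483344-59483390 on the plus strand, and that of Fzd2 and Fzd7 at chr11:102606064-102606101 and chr1:59484298-59484335, both on the plus strand. No stretch of 50 coding bases was shared exactly by any pair of these genes. Fzd3 shared at most 14 bases with the others, in this case with Fzd7.

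On GRCm38 the Fzd2 gene spans chr11:102604396-102608058 on the plus strand, Fzd7 chr1:59482424-59486955 on the plus strand, Fzd1 chr5:4753839-4758035 on the minus strand and Fzd3, with 7 exons, chr14:65192449-65262463 on the minus strand. Wnt5a spans chr14:28504750-28527448 and Wnt3 chr11:103774150-103817957, both on the plus strand, each with 5 exons. Lgr5, with 18 exons, spans chr10:115450311-115587780 on the minus strand. Axin2, with 11 exons, spans chr11:108920349-108950783 on the plus strand, Lef1, with 12 exons, chr3:131110471-131224356 on the plus strand, and Tcf7, with 10 exons, chr11:52252371-52283014 on the minus strand. Fzd3, Wnt5a, Lgr5, Axin2, Lef1 and Tcf7 overlap other annotated genes, of which those with values reached at most 0.232 FPKM in any library. The lincRNA Gm26551, on the strand of Tcf7, is not analysed here.

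Promoter windows of 300 bases, 250 before and 50 after a transcript's start, were taken from RefSeq (GRCm38.p6), and 6 of the 10 genes had 10 of them. They are shown for Fzd7, a receptor gene with higher FPKM in experimental cells at both passages, and for Axin2, the member best known as a target of β-catenin signalling. Capitals mark a Tcf and Lef motif, searched on both strands as CTTTG followed by 2 bases that are each A or T, and no other motif was searched.
Fzd7: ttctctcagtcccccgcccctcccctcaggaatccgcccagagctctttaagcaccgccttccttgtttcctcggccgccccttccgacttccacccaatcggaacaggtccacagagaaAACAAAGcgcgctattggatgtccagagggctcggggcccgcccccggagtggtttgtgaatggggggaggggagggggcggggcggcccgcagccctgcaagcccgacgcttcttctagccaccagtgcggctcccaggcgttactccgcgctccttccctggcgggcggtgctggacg
Axin2: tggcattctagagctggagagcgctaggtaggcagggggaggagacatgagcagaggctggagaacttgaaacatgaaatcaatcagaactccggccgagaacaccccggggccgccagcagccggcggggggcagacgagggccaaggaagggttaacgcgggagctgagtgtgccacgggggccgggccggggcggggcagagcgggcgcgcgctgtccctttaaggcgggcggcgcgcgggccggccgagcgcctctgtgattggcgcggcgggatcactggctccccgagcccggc
The Fzd7 window lies at chr1:59481897-59482196 and the Axin2 window at chr11:108920099-108920398, both on the plus strand. The Fzd7 window held 1 motif, which begins 130 bases before the start site, and the Axin2 window held none. Of the other windows, that of Wnt3 held 1 motif and 1 of the 4 Lef1 windows held 1, so 3 of 10 windows did, against 16.9% of all 32851 promoter windows. The motif was first searched with A alone as the first of these 2 bases. In that form 0 of 10 windows held it, against 8.65% of all windows. It was widened after the windows were seen, so the count of 3 of 10 is a description only. The windows of Fzd7 and Axin2 had a GC content of 66.7% and 70.0%, against a median of 52.7% over all windows.

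At passage 1, 4 members passed the test. Fzd2, Fzd7 and Wnt5a were higher and Lgr5 was lower in experimental than in control cells. At passage 6, Fzd2, Fzd7 and Wnt5a were higher again, Fzd3 was also higher, and no member passed as lower, although Lgr5 did at an unadjusted p under 0.05. Tests were made with limma on log2(FPKM + 1), and a gene was called where its p, adjusted by Benjamini-Hochberg over all genes tested at that passage, was under 0.05. Of all genes tested at passage 1, 30.4% were called, 11.5% higher and 18.9% lower. At passage 6, 19.8% were called, 8.98% higher and 10.8% lower. Experimental and control libraries did not overlap for 42.6% of tested genes at passage 1, with the experimental ones above for 15.8% and below for 26.9%, and for 41.7% at passage 6, with 17.4% above and 24.3% below. A fold change below is 2 to the power of the fitted change in log2(FPKM + 1), so it is smaller than the ratio of mean FPKM for genes at low levels.

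**Figure D1:**
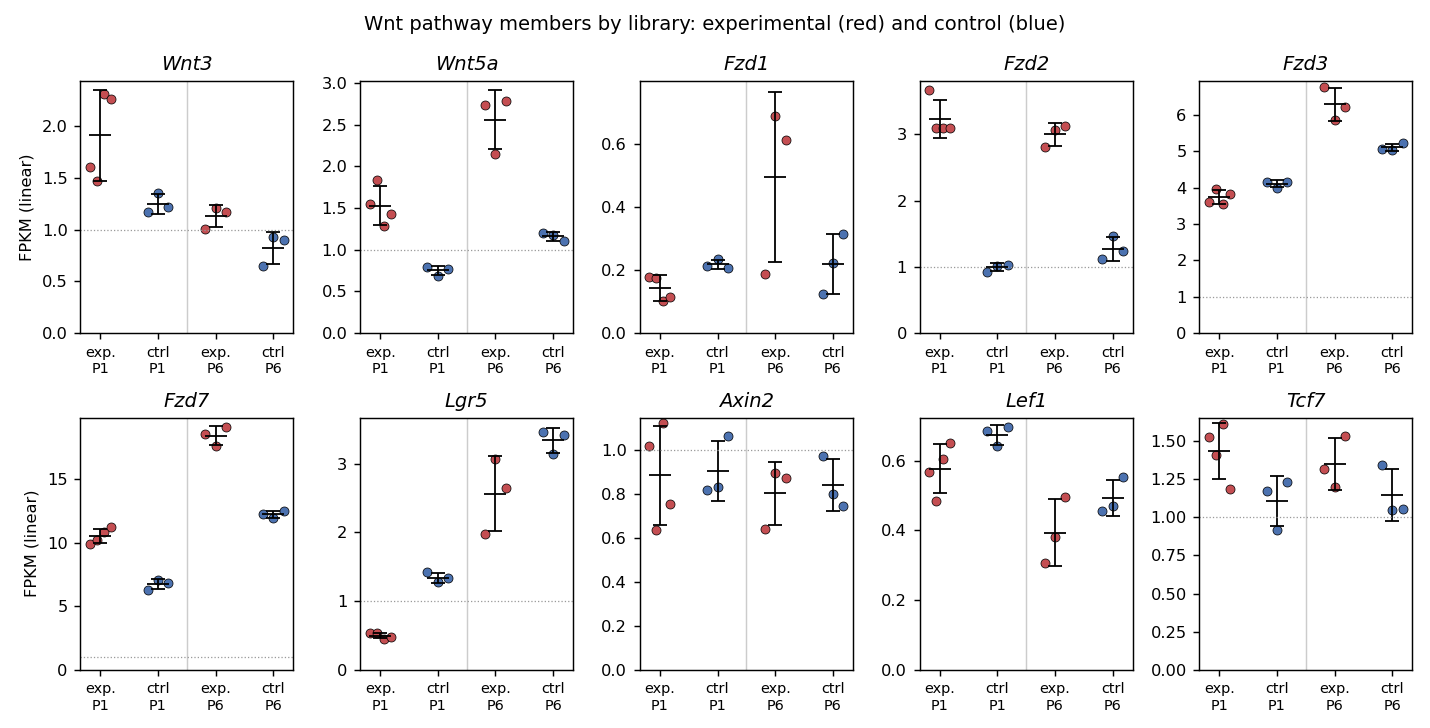
FPKM (linear axis from 0) of the 10 Wnt pathway genes in each library, with experimental libraries in red and control libraries in blue at passages 1 and 6, the mean as a dash and the SD as a bar. The dotted line marks 1 FPKM. Fzd2, Fzd7 and Wnt5a lay above all controls in every experimental library of both passages, while Lgr5 lay below them.

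Fzd2 encodes a receptor that can pass on both β-catenin signals and Wnt5a signals. At passage 1 it had 3.67, 3.10, 3.09 and 3.09 FPKM in experimental libraries, against 0.927, 1.02 and 1.03 FPKM in controls. Every experimental library lay about 3 FPKM or more, and every control at about 1 FPKM. The ratio of mean FPKM was 3.26, and the fitted change was 1.09 ± 0.073 on the log2(FPKM + 1) scale (SE), 2.12-fold higher (limma, Benjamini-Hochberg adjusted p = 9.72e-05). At passage 6 Fzd2 had 2.80, 3.07 and 3.12 FPKM in experimental libraries, against 1.11, 1.47 and 1.23 FPKM in controls. The groups were again apart, with a ratio of means of 2.36 and a fitted change of 0.82 ± 0.085 (SE), 1.76-fold higher (limma adjusted p = 0.0023). In order of level Fzd2 was number 3 of the 10 genes in experimental cells of both passages, while in controls it was number 6 at passage 1 and number 4 at passage 6.

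Fzd7, a receptor gene known from embryonic and other stem cells, had the highest level of the 10 genes in every group. At passage 1 it had 9.94, 10.2, 10.8 and 11.2 FPKM in experimental libraries, against 6.31, 7.08 and 6.84 FPKM in controls. The fitted change was 0.58 ± 0.060 (SE), 1.49-fold higher (limma adjusted p = 0.000587). In passage 6 Fzd7 had 18.6, 17.6 and 19.1 FPKM in experimental libraries, against 12.3, 11.98 and 12.5 FPKM in controls. The lowest experimental library thus lay well above the highest control at both passages, and the change at passage 6 was 0.55 ± 0.051 (SE), 1.47-fold higher (limma adjusted p = 0.0017). The 2 changes of Fzd7 differed by -0.02 (95% confidence interval from -0.19 to 0.14, limma adjusted p = 0.861). The tables of the passages were deposited separately and may be scaled apart, so levels of passage 6 and passage 1 were not tested against each other.

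Fzd3 encodes a receptor known for axon guidance and planar cell polarity in the nervous system. At passage 1 it had 3.62, 3.97, 3.56 and 3.81 FPKM in experimental libraries, against 4.17, 4.00 and 4.17 FPKM in controls. Every experimental library lay below every control by a small margin, and the fitted change of -0.11 ± 0.055 (SE) did not pass the test (limma adjusted p = 0.164). At passage 6 Fzd3 had 6.78, 5.87 and 6.23 FPKM in experimental libraries, against 5.07, 5.03 and 5.22 FPKM in controls. Here every experimental library lay above every control, with a change of 0.25 ± 0.063 (SE), 1.19-fold higher (limma adjusted p = 0.0323). This call was lost without control 1, 2 or 3 or experimental library 3 of passage 6, with adjusted p between 0.0699 and 0.12. The change at passage 6 was higher than that at passage 1 by 0.36 ± 0.078 (SE) in a test of the difference itself (limma adjusted p = 0.0102, with 14.7% of all genes called, 8.46% higher and 6.27% lower). Fzd3 was the 1 member called for this difference.

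Fzd1 stayed low in every library. At passage 1 it had 0.179, 0.176, 0.102 and 0.113 FPKM in experimental libraries, against 0.212, 0.235 and 0.206 FPKM in controls. The passage 6 values of Fzd1 were 0.186, 0.688 and 0.610 FPKM in experimental libraries, against 0.124, 0.221 and 0.313 FPKM in controls. The 2 higher values are those of experimental libraries 2 and 3, the libraries with high fibroblast, liver and brain marker transcripts. Library 1 lay within the range of the controls. The part of those transcripts in the Fzd1 values was not tested. Fzd1 did not reach 1 FPKM in any library and was left out of the test.

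Wnt5a, the ligand best known for signalling without β-catenin, had 1.55, 1.84, 1.29 and 1.43 FPKM in experimental libraries of passage 1, against 0.794, 0.689 and 0.772 FPKM in controls. The groups did not overlap, and the change was 0.52 ± 0.091 (SE), 1.44-fold higher (limma adjusted p = 0.00476). Since no control library reached 1 FPKM, Wnt5a entered the passage 1 test only through its experimental libraries. With no filter on low values its adjusted p at passage 1 was 0.0192. Wnt5a at passage 6 had 2.74, 2.15 and 2.79 FPKM in experimental libraries, against 1.20, 1.18 and 1.10 FPKM in controls. The ratio of mean FPKM was 2.20, against 2.03 at passage 1, and the change was 0.71 ± 0.093 (SE), 1.64-fold higher (limma adjusted p = 0.00447). The changes of Wnt5a at passages 6 and 1 differed by 0.19 (95% confidence interval from -0.09 to 0.47, limma adjusted p = 0.34).

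Wnt3, a ligand that signals through β-catenin, had 1.60, 1.47, 2.31 and 2.27 FPKM in experimental libraries of passage 1, against 1.18, 1.36 and 1.22 FPKM in controls. Every experimental library lay above every control, but experimental libraries 3 and 4 stood far above 1 and 2, and the change of 0.36 ± 0.12 (SE) did not pass the test (limma adjusted p = 0.0543). Without experimental library 1 the adjusted p was 0.0493 and without experimental library 2 it was 0.0231. At passage 6 Wnt3 had 1.01, 1.21 and 1.17 FPKM in experimental libraries, against 0.649, 0.930 and 0.902 FPKM in controls. The groups were apart here too, with a change of 0.22 ± 0.10 (SE) that did not pass (limma adjusted p = 0.156), and Wnt3 entered this test only through its experimental libraries.

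Lgr5, a receptor for R-spondins and a marker of stem cells in the intestine, was the 1 member called lower. At passage 1 it had 0.532, 0.530, 0.453 and 0.471 FPKM in experimental libraries, against 1.42, 1.27 and 1.33 FPKM in controls. The groups were far apart, with a ratio of means of 0.37 and a change of -0.65 ± 0.075 (SE), 1.56-fold lower on the log2(FPKM + 1) scale (limma adjusted p = 0.000915). Lgr5 entered this test only through its 3 controls, so with any 1 control left out it was not tested, and with no filter its adjusted p was 0.003. Lgr5 at passage 6 had 1.98, 3.07 and 2.64 FPKM in experimental libraries, against 3.46, 3.14 and 3.42 FPKM in controls. All 3 experimental libraries lay below the controls, library 2 only just, and the change of -0.29 ± 0.116 (SE) did not pass (limma adjusted p = 0.117). With experimental library 1 as the only experimental library of passage 6, the change was -0.54. A lone library shows no spread of its own, so only the size is given. The changes at passages 6 and 1 differed by 0.35 (95% confidence interval from 0.06 to 0.64, limma adjusted p = 0.0965). Without passage 6 experimental library 1 the difference was 0.47 (limma adjusted p = 0.00783). That fit keeps experimental libraries 2 and 3, which had high liver, fibroblast and brain marker sums. With experimental library 1 alone the difference was 0.10, so its size depended on which libraries were kept.

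**Figure D2:**
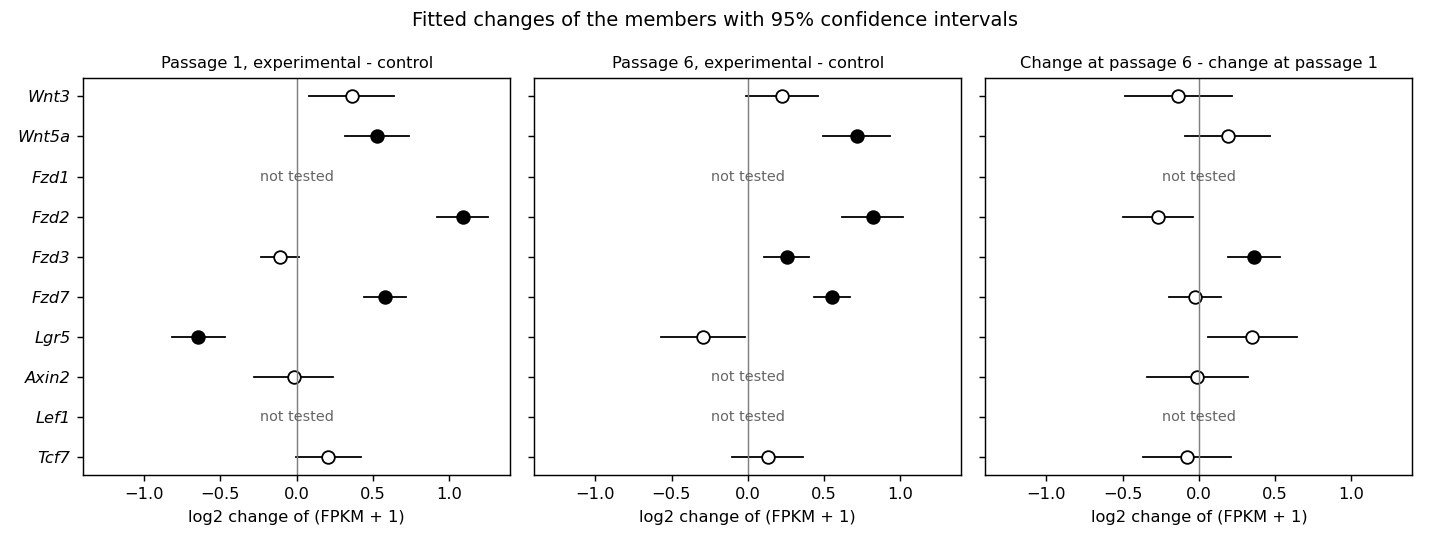
Fitted change of log2(FPKM + 1) of each member, experimental minus control, at passage 1 (left) and passage 6 (middle), and the passage 6 change minus the passage 1 change (right), with 95% confidence intervals. Filled points passed the test (adjusted p under 0.05), open points did not, and genes under the filter on low values are written as not tested. Fzd2 (1.09 and 0.82) had the largest change of the members at both passages.

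Axin2 holds the β-catenin destruction complex together and is also switched on by β-catenin, so its RNA is widely used as a readout of the pathway. At passage 1 it had 1.02, 0.638, 1.12 and 0.757 FPKM in experimental libraries, against 0.820, 0.832 and 1.06 FPKM in controls. The groups overlapped, and the change was -0.02 (95% confidence interval from -0.28 to 0.24, limma adjusted p = 0.905). At passage 6 Axin2 had 0.639, 0.897 and 0.872 FPKM in experimental libraries, against 0.973, 0.801 and 0.746 FPKM in controls, again with overlap. It did not reach 1 FPKM at passage 6 and was not tested there.

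Tcf7 and Lef1 encode DNA-binding partners of β-catenin that are also known from T cells. Tcf7 averaged 1.43 ± 0.185 FPKM in experimental and 1.11 ± 0.166 FPKM in control libraries of passage 1 (SD, n = 4 and 3), with a change of 0.21 ± 0.093 (SE) that did not pass the test (limma adjusted p = 0.125). At passage 6 it averaged 1.35 ± 0.172 FPKM in experimental and 1.15 ± 0.170 FPKM in control libraries (SD, n = 3 each), with a change of 0.13 ± 0.099 (SE, limma adjusted p = 0.381). Lef1 averaged 0.577 ± 0.070 FPKM in experimental and 0.674 ± 0.029 FPKM in control libraries of passage 1, and 0.393 ± 0.096 against 0.493 ± 0.052 FPKM at passage 6 (SD, n as for Tcf7). The groups of both genes overlapped at both passages, and Lef1 stayed under 1 FPKM and was not tested. Of 10 T cell markers, only the kinase gene Lck reached 1 FPKM, with 5.28 to 7.02 FPKM in experimental and 7.17 to 7.74 FPKM in control libraries of passage 1, and 3.70 to 4.404 FPKM in experimental and 4.82 to 5.48 FPKM in control libraries of passage 6. Lck made up most of the sum of this list, which lay between 3.85 and 7.05 FPKM in experimental and between 5.03 and 8.27 FPKM in control libraries over both passages. The T cell receptor genes Cd3e, Cd3d and Cd3g, which define T cells, stayed at or below 0.120 FPKM in every library.

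In the order of their levels, Fzd7 was highest and Fzd3 next in all 4 groups. In passage 1 experimental libraries Fzd3 and Fzd2 overlapped at 3.74 ± 0.187 and 3.24 ± 0.287 FPKM (SD, n = 4), whereas in the controls of that passage Fzd2, at 0.993 ± 0.058 FPKM (SD, n = 3), overlapped with its neighbours Tcf7 and Axin2. In passage 6 experimental libraries Fzd2, Lgr5 and Wnt5a overlapped at 3.00 ± 0.171, 2.57 ± 0.549 and 2.56 ± 0.354 FPKM (SD, n = 3). In the passage 6 controls Lgr5 was number 3 with no overlap, at 3.34 ± 0.177 FPKM (SD, n = 3), and Fzd2, Wnt5a and Tcf7 overlapped below it. Fzd1 was lowest in every group but the passage 6 experimental libraries, where it overlapped with Axin2 and Lef1.

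The results for Fzd2, Fzd7 and Wnt5a were set beside the markers of other tissues. Fibroblast marker sums in passage 1 lay between 4.79 and 11.9 FPKM in experimental and between 2.07 and 12.2 FPKM in control libraries, so the sums overlapped where the 3 genes did not. Single markers of this list behaved differently. Pdgfra had 1.27 to 1.58 FPKM in experimental and 0.800 to 0.899 FPKM in control libraries of passage 1, and Pdgfrb had 1.63 to 3.27 FPKM in experimental and 0.899 to 1.19 FPKM in control libraries, so these growth factor receptor genes of mesenchymal cells were apart between the groups as well. The collagen gene Col1a1, at 2.89, 2.77, 3.57 and 0.462 FPKM in experimental and 0.047, 4.65 and 4.29 FPKM in control libraries, overlapped. The part of fibroblast transcripts in the passage 1 values of Fzd2, Fzd7 and Wnt5a was not tested. At passage 6 experimental library 1, with fibroblast markers at 5.47 FPKM and thus below the controls, had 2.80 FPKM of Fzd2 and 2.74 FPKM of Wnt5a. With that library alone against the 3 controls, Fzd2 changed by 0.75, Wnt5a by 0.79, Fzd7 by 0.57 and Fzd3 by 0.35. A lone library shows no spread of its own, so only the sizes of these changes are given. Cartilage marker sums were 37.4, 37.8, 41.8 and 15.9 FPKM in experimental and 12.3, 53.4 and 51.1 FPKM in control libraries of passage 1. Between the libraries with high cartilage sums, that is without experimental library 4 and control 1, Fzd2 changed by 1.08 (limma adjusted p = 0.00636), Fzd7 by 0.51 (adjusted p = 0.0174) and Wnt5a by 0.56 (adjusted p = 0.0496). At passage 6 cartilage sums were 20.6, 22.0 and 24.9 FPKM in experimental and 37.9, 45.0 and 60.1 FPKM in control libraries. The groups were thus apart, so cartilage content and the storage failure cannot be told apart at passage 6. Lgr5 had 0.453 to 0.532 FPKM in the passage 1 experimental libraries, among which the colon sum was 8.43 to 222 FPKM. With the log2 colon sum in the fit, the Lgr5 change was -0.61 at both passages (limma adjusted p = 0.00382 at passage 1 and 0.0327 at passage 6). At passage 6 the colon sum was low only in experimental libraries 2 and 3, which had high liver, fibroblast and brain sums. That fit therefore cannot part colon transcripts from those of the other tissues. The part of colon transcripts in the Lgr5 values was not tested in any other way.

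**Figure D3:**
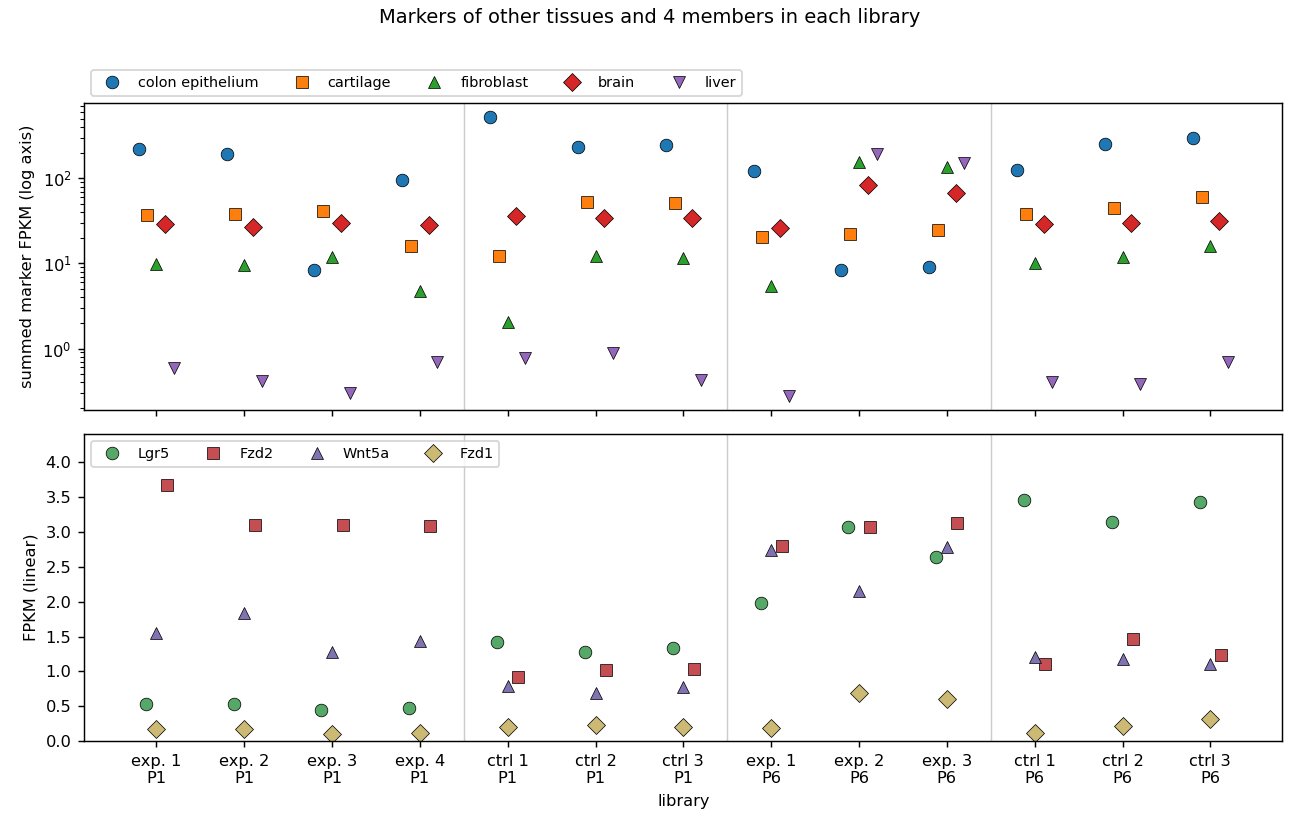
Summed FPKM of the marker genes of 5 other tissues (top, log axis) and FPKM of Lgr5, Fzd2, Wnt5a and Fzd1 (bottom, linear axis from 0) in each of the 13 libraries, experimental (exp.) left of control (ctrl) within passages 1 and 6. Liver, fibroblast and brain markers were high in passage 6 experimental libraries 2 and 3, in which Fzd1 had 0.688 and 0.610 FPKM. Fzd2 and Wnt5a were raised in experimental library 1 as well.

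The rest of the pathway was taken as 102 further genes listed by role, of which 100 had values, and Wnt3a and Wnt8a are not analysed here. The role lists were chosen with earlier results of these data known. Their counts and shares, here and by role below, are therefore a description. At passage 1, 47 of them were tested, of which 24 were higher and 3 lower. That is 57.4% called, against 30.4% of all tested genes (11.5% higher and 18.9% lower). At passage 6, 46 were tested, of which 11 were higher and 2 lower. That is 28.3% called, against 19.8% of all tested genes (8.98% higher and 10.8% lower). The median change of the tested genes was 0.19 at passage 1 and 0.09 at passage 6, against -0.05 and -0.04 over all tested genes. With all libraries scaled by the median of ratios, calls over all genes at passage 1 were 55.5% higher, against 37.8% with the deposited scaling, and at passage 6 the shares were 57.55% and 45.45%. The passage 6 count was sensitive to single libraries, with 6 calls without any 1 of the 3 controls and 23 without experimental library 1.

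Wls, which carries Wnt ligands to the cell surface, rose at both passages. It had 4.33, 4.51, 4.59 and 4.97 FPKM in experimental libraries of passage 1, against 1.85, 1.84 and 1.86 FPKM in controls, and was 1.96-fold higher (limma adjusted p = 5.74e-05). At passage 6 it had 7.14, 6.29 and 7.54 FPKM in experimental libraries, against 2.97, 3.26 and 3.44 FPKM in controls, and was 1.89-fold higher (limma adjusted p = 0.00156). None of the 15 other Wnt ligands with values reached the filter at either passage.

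Among the other Frizzled genes, Fzd5 and Fzd6 also rose. Fzd6 was 1.42-fold higher at passage 1 and 1.29-fold higher at passage 6, and Fzd5 was 1.41-fold and 1.36-fold higher, all with limma adjusted p of at most 0.0233. The passage 6 calls were lost without single libraries, for Fzd5 without control 2 (adjusted p = 0.0508) and for Fzd6 without control 1 or 2 or experimental library 3 (adjusted p between 0.0694 and 0.0851). Fzd4 had between 2.55 and 3.11 FPKM in experimental and between 2.40 and 3.31 FPKM in control libraries of passage 1, and did not pass at either passage. Fzd8, Fzd9 and Fzd10 stayed under 1 FPKM in every library. Of the 6 Frizzled genes tested, the members included, 4 were higher at passage 1 and 5 at passage 6, and none was lower. Without the members, 2 of 3 were higher at each passage. Members and role lists alike were chosen with earlier results of these data known, so these counts are a description. Over all tested genes 11.5% were higher at passage 1 and 8.98% at passage 6.

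All 4 co-receptors tested were higher at passage 1, against 11.5% of all tested genes. Ptk7, which works with Frizzled in planar polarity, had 3.81, 3.50, 4.06 and 4.19 FPKM in experimental libraries of passage 1, against 1.17, 1.70 and 1.14 FPKM in controls, and was 2.10-fold higher (limma adjusted p = 0.000334). Lrp5 was 1.60-fold, Ryk, a receptor for Wnt5a, 1.25-fold and Lrp6 1.17-fold higher. The Lrp6 call was lost without any 1 control or without experimental library 4 (adjusted p between 0.0504 and 0.0752). At passage 6 Ptk7 was 1.52-fold higher (limma adjusted p = 0.00418) and Ryk 1.48-fold higher (limma adjusted p = 0.00156), while Lrp5 and Lrp6 did not pass. Lrp5 had 6.16, 8.36 and 7.997 FPKM in experimental libraries of passage 6, against 7.37, 6.64 and 6.84 FPKM in controls, so the groups overlapped. The Lrp5 change at passage 6 was lower than at passage 1 by 0.59 on the log2(FPKM + 1) scale (limma adjusted p = 0.0214). This call was lost without passage 1 control 3 or passage 6 control 1 (limma adjusted p = 0.0574 and 0.0576). The Ptk7 change was also lower at passage 6, by 0.47 (limma adjusted p = 0.0317), and the Ryk change was higher, by 0.24 (limma adjusted p = 0.046). Calls of Ptk7 and Ryk were lost without several single libraries (limma adjusted p between 0.0516 and 0.109). Of 48 pathway genes other than the members tested for a difference between passages, these co-receptors included, 3 were called higher and 10 lower. Over all tested genes 8.46% were called higher and 6.27% lower.

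On the R-spondin arm, Lgr4, the close relative of Lgr5, was 1.39-fold higher at passage 1, where Lgr5 was lower (limma adjusted p = 0.0024) and 1.29-fold higher at passage 6 (limma adjusted p = 0.038). The passage 6 call of Lgr4 was lost without control 1 or 3 or any 1 experimental library (adjusted p between 0.051 and 0.129). Among 16 extracellular inhibitors, 4 were tested at passage 1 and 5 at passage 6. Kremen1, which draws Lrp5 and Lrp6 off the surface together with Dkk1, was 1.30-fold higher at passage 1 and 1.23-fold higher at passage 6, the second a call lost without any 1 control (adjusted p between 0.0502 and 0.06). Dkk3, the inhibitor family member with the highest level at 120 FPKM on average, was 1.15-fold lower at passage 1, a call lost with median-of-ratios scaling (adjusted p = 0.0529). Apcdd1, a membrane inhibitor and itself a Wnt target, was 1.25-fold lower at passage 1 and 1.13-fold higher at passage 6, a difference of 0.50 (limma adjusted p = 0.00176). Its passage 6 call was lost without any 1 control or without experimental library 2 or 3 (adjusted p between 0.0659 and 0.171). Notum, an enzyme that strips the lipid off Wnt ligands and is also a Wnt target, was 1.47-fold lower at passage 6, with 0.364, 0.660 and 0.650 FPKM in experimental libraries, against 1.55, 1.19 and 1.12 FPKM in controls (limma adjusted p = 0.022). Notum entered this test only through the controls, so with any 1 control left out it was not tested, and with no filter it did not pass (adjusted p = 0.0806).

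**Figure D4:**
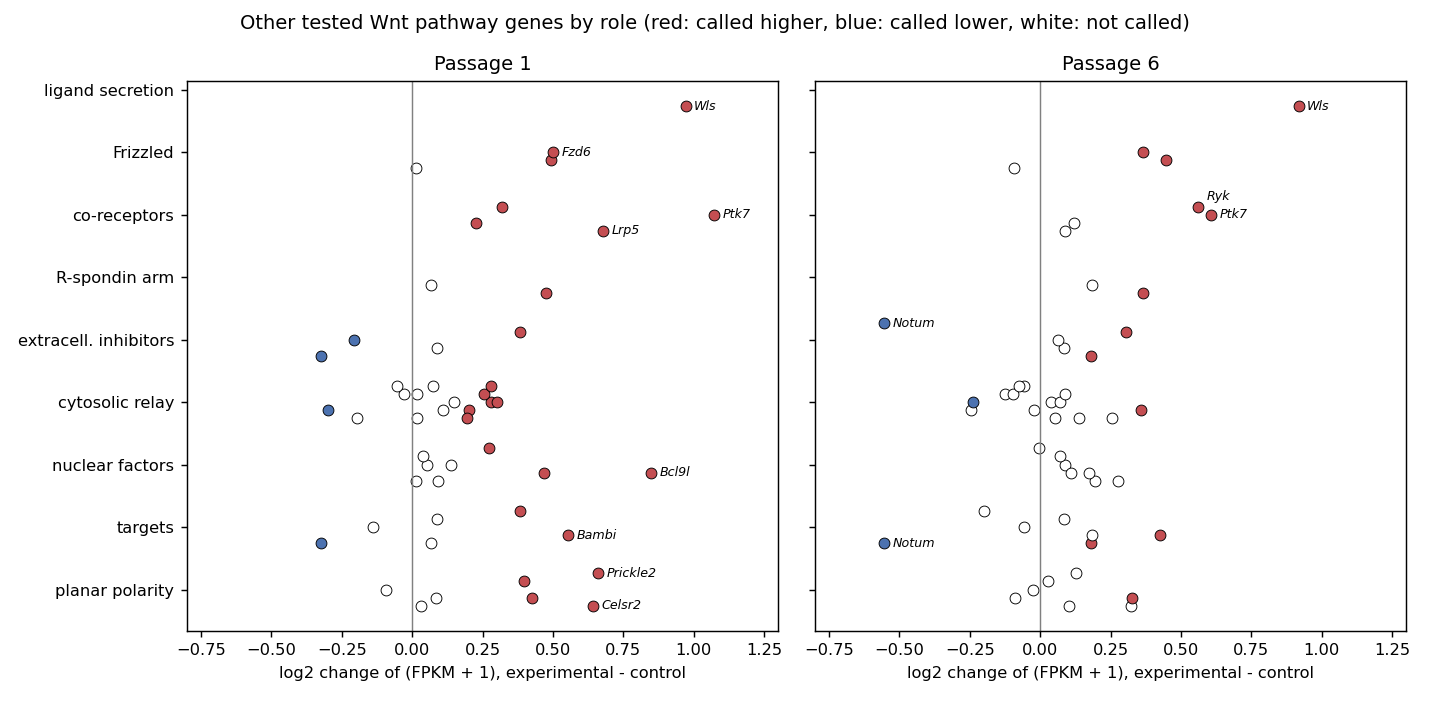
Fitted change of log2(FPKM + 1), experimental minus control, of the tested Wnt pathway genes other than the members at passage 1 (left) and passage 6 (right), 1 point a gene, by role. Red points passed the test as higher, blue points as lower and white points did not pass, genes with a called change of at least 0.5 are named, and genes with 2 roles, such as Apcdd1 and Notum, stand under both. Wls (0.97 and 0.92) and Ptk7 (1.07 and 0.61) lay farthest to the right among these genes at both passages.

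Of 15 tested genes of the cytosolic relay other than the members, 6 were higher and 1 lower at passage 1. At passage 6, 1 of 14 was higher and 1 lower. Called were thus 46.7% and 14.3%, against 30.4% and 19.8% of all tested genes. Ctnnb1, the gene of β-catenin, had 90.5, 94.4, 87.6 and 88.0 FPKM in experimental libraries of passage 1, against 72.2, 73.0 and 73.5 FPKM in controls, and was 1.23-fold higher (limma adjusted p = 0.0019). At passage 6 it had 62.2, 60.4 and 61.5 FPKM in experimental libraries, against 45.5, 48.9 and 48.7 FPKM in controls, and was 1.28-fold higher (limma adjusted p = 0.00463). Tnks2, a tankyrase that marks Axin for destruction, was 1.22-fold higher at passage 1, and Axin1, the scaffold of the destruction complex, 1.21-fold higher. Apc2 was 1.23-fold lower at passage 1, a call lost without any 1 control or without experimental library 4 (adjusted p between 0.0573 and 0.0849). Dvl1, which relays the signal from Frizzled, was 1.18-fold lower at passage 6, a call lost without any 1 control (adjusted p between 0.0889 and 0.0961).

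Of 8 tested nuclear factors other than the members, 3 were higher at passage 1, and 0 of 7 passed at passage 6, where 1, Tle3, had an unadjusted limma p under 0.05. Bcl9l, a coactivator that binds β-catenin, was 1.80-fold higher, the corepressor Tle3 1.38-fold higher and Tcf7l2, the DNA-binding relative of Tcf7 and Lef1, 1.21-fold higher. Tcf7l2 entered the test only through its experimental libraries, and its call was lost without any 1 control (adjusted p between 0.071 and 0.0803). At passage 6 Tle3 had a limma adjusted p of 0.0568, and 0.00132 without experimental library 1, and Pygo2, a partner of Bcl9 proteins, had 0.397. Among 6 tested targets other than the members at passage 1, Bambi, a decoy receptor of the TGF-β family, was 1.47-fold higher and Myc, a growth regulator with many inputs, 1.30-fold higher, while Apcdd1 was lower. At passage 6 Bambi was 1.34-fold higher, a call lost without control 3 (adjusted p = 0.0516), Apcdd1 was higher and Notum lower among 7 tested. Among 7 planar polarity genes, Prickle2 was 1.58-fold, Celsr2 1.56-fold, Vangl2 1.34-fold and Daam2 1.32-fold higher at passage 1. At passage 6 Vangl2 alone passed, 1.25-fold higher. This call was lost without any 1 control or without experimental library 2 or 3 (limma adjusted p between 0.055 and 0.118). Called at passages 1 and 6 were 37.5% and 0% of the nuclear factors and 50% and 42.9% of the targets. For planar polarity genes the shares were 57.1% and 14.3%, against 30.4% and 19.8% over all tested genes.

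Genes whose values followed the members called at passage 1 most closely were sought among 6739 genes with a mean of at least 5 FPKM at both passages. Likeness was Pearson's r of log2(FPKM + 1) over the 13 libraries after each passage was centred on its mean, and it is a description, since all of these genes share the libraries and the split into groups. Fzd2 was most like Gpc1 (r = 0.990), Myl9 (r = 0.988) and Mapkapk2 (r = 0.986). Fzd7 was most like Igfbp5 (r = 0.990), Dcbld2 (r = 0.988) and Mgat5 (r = 0.987). Wnt5a was most like Fam3c (r = 0.975), Chsy1 (r = 0.975) and Ctnnb1 (r = 0.969), the last a gene of the pathway itself. Lgr5 was most like Smarcb1 (r = 0.981), Slc10a4 (r = 0.965) and Slc25a22 (r = 0.964). Gpc1, a heparan sulfate proteoglycan of the cell surface, averaged 35.9 FPKM in experimental and 18.4 FPKM in control libraries of passage 1, and 52.9 against 30.7 FPKM at passage 6.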

How the data were processed

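Poly(A) RNA of 13 Neuro2a libraries was sequenced, with strand kept per the labels' protocols. The authors deposited FPKM, with 1 table for each passage. The submitters' processing notes name cutadapt, HISAT2, StringTie, DESeq2, edgeR and the mouse build mm10, with no versions, and the scaling of the FPKM between libraries and tables is not stated. Depth is unknown, so the spread of the libraries within a group sets the precision. Of 34857 gene identifiers, 1 had an empty cell and was left out.

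The deposited FPKM were turned into log2(FPKM + 1) and fitted with limma 3.58.1 (R 4.3.3, intensity trend on) for each passage apart. A gene was tested, two-sided, if 3 or more of the passage's libraries had 1 FPKM or more, with Benjamini-Hochberg adjustment over all tested genes and a threshold of 0.05. The difference between passages was a contrast over all libraries. The fit was also run on simulated data with independent noise for each gene. Those data held no shared effect of a library or of other tissues, so they cannot show how the fit handles such effects. The members, lists and tests were chosen with earlier results of these data known, and the motif was widened from its first 2 forms after the windows were seen. All 10 members are named. Of the other pathway genes, up to 4 called with the largest change per role and passage are named, or else the 2 with the highest FPKM, and all Frizzled genes are. The differences between passages of Lrp5, Ptk7, Ryk and Apcdd1 were chosen after their values were seen. Alternatives were pseudocounts of 0.1 and 5, other filters, scalings, weights and limma settings, a replicate block, 1 fit over both passages, the colon sum as covariate and leaving out libraries. Tables and plots came from Python 3.11.15, numpy 2.4.6, pandas 2.3.3, scipy 1.17.1 and matplotlib 3.10.9.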

Additional observations from a re-analysis of the deposited data

Results flagged for a closer look

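Fzd2 had 3.67 FPKM in passage 1 experimental library 1, apart from the other 3 experimental libraries at 3.09 to 3.10 FPKM, and was noted as a sample far from the others of its group. Of the 10 members, 1 was noted in this way, each tested in the 4 libraries of that group, and chance marks about 1 in 20 such groups. All 4 values lay above the controls.

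The change of Fzd3 differed between the passages by 0.36 on the log2(FPKM + 1) scale (limma, Benjamini-Hochberg adjusted p = 0.0102). Its experimental libraries lay above the controls in 3 of 3 libraries at passage 6 and below them in 4 of 4 at passage 1, where the change itself did not pass the test.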

How the results depend on the processing

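Direction and call of Fzd2, Fzd7 and Wnt5a held at both passages under every alternative in which they were tested. Members called were 3 to 5 at passage 1, 3 to 4 at passage 6 and 1 to 2 for the difference between passages when single libraries were left out, against 4, 4 and 1. A minimum of 5 FPKM, which tests fewer genes, left 1 and 2 members called at passages 1 and 6. For the difference, a pseudocount of 0.1 and array weights gave 2 members and the replicate block 0 (Fzd3 at adjusted p = 0.0668). The other pathway genes called, 27 and 13, were 21 to 28 and 6 to 23 with single libraries left out. At passage 1 they were 17 with a minimum of 5 FPKM, 17 with the replicate block and 14 between cartilage-bearing libraries, and at passage 6 they were 7 with no filter and 8 with the colon covariate. Same-numbered samples did not deviate together in a consistent way (r of 0.085, -0.206 and 0.209 at passage 1 and -0.064, -0.049 and 0.027 at passage 6). Not every sample correlated best with its own number either, so the numbers were not taken as pairs. The replicate block gave 4 and 3 members at passages 1 and 6, Fzd3 being lost at passage 6 (adjusted p = 0.0692), as it was with no filter (0.0776). Wnt3 at passage 1 passed with equal totals, median-of-ratios scaling, quantile normalization, no trend, array weights and 1 fit (adjusted p from 0.0147 to 0.0497), and Tcf7 with quantile normalization (0.0449). Among the other genes named, passage 1 calls lost between cartilage-bearing libraries were those of Apc2, Apcdd1, Axin1, Dkk3, Kremen1, Lrp6, Myc, Ryk, Tcf7l2 and Tnks2 (adjusted p from 0.0526 to 0.167), and with the replicate block those of Apc2, Apcdd1, Dkk3, Lrp6, Myc, Tcf7l2 and Tnks2 (0.0506 to 0.108). Apc2 was also lost with no filter (0.0653) and Lrp6 with the colon covariate (0.0579). At passage 6 Apcdd1, Dvl1, Fzd6, Lgr4, Notum and Vangl2 were lost with no filter (0.0507 to 0.119), and Apcdd1, Dvl1, Lgr4 and Notum with the replicate block (0.0582 to 0.106). Apcdd1, Dvl1, Fzd5, Fzd6, Kremen1, Lgr4 and Vangl2 were lost with the colon covariate (0.0842 to 0.254). With experimental library 1 alone the calls of Apcdd1, Fzd5, Fzd6, Lgr4 and Vangl2 were lost, with changes of 0.19, 0.35, 0.37, 0.46 and 0.26. Dvl1 was also lost with median-of-ratios scaling (0.0504) and Lgr4 with array weights (0.0565). The Lrp5 difference was lost with a pseudocount of 5 (0.0555), no filter (0.065), the replicate block (0.093) and between cartilage-bearing libraries (0.0718). That of Ptk7 was lost with the same settings (0.0845 to 0.133). The Ryk difference was lost with no filter, median-of-ratios scaling, quantile normalization, no trend, the replicate block and between cartilage-bearing libraries (0.0532 to 0.114). Uncalled changes near 0 turned sign. Axin2 at passage 1 was 0.0108 with median-of-ratios scaling, 0.0476 with quantile normalization, 0.0103 with the replicate block and -0.0528 to 0.044 without single libraries. The Axin2 difference was 0.0643 with array weights and -0.0743 to 0.0579 without single libraries. The Fzd7 difference was 0.0372 with a pseudocount of 5, 0.0034 with the replicate block, 0.0442 between cartilage-bearing libraries and -0.0557 to 0.0165 without single libraries. The causes were not tested. Counts over all genes at passages 1 and 6 and for the difference were 3792, 2462 and 1918, and with the replicate block 1813, 1438 and 728. Without single libraries they were 2053 to 4069, 670 to 4257 and 1160 to 2547, with no filter 3001, 1286 and 1185, with array weights 5028, 3538 and 3192, and with the colon covariate 3400, 944 and 2756. Between cartilage-bearing libraries passage 1 had 976 and the difference 838. Unknown depth limits Fzd1, Lef1 and Axin2, which lay near or under 1 FPKM.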
